A study of Homo sapiens with 12 samples.

Results

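The genes described are 9 transcripts that the tumour suppressor p53 is known to switch on, MDM2, BBC3, BAX, FAS, TP53INP1, GADD45A, RRM2B, SESN1 and ZMAT3. They were taken by symbol from a table of RNA-seq read counts, in which all 9 are present among 13511 genes. The cells were HepG2, a human hepatoma line that retains wild-type p53, sequenced as poly(A) RNA in 12 libraries, 3 in each of 4 groups. One group received 5 µM A-485, an inhibitor of the acetyltransferases CBP and p300, and 30 µg/ml doxycycline (A-485 and Dox), one the inhibitor alone (A-485), one the antibiotic alone with the solvent (Dox) and one the solvent alone (DMSO). All cells had 1 h of pretreatment with A-485 or DMSO and 24 h of further treatment, and no other antibiotic. Nothing in the labels tells whether the 3 replicates were grown as separate cultures. The p-values therefore reflect the library-to-library spread alone, and that spread may be technical.

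p53 is a transcription factor that is held at a low level because MDM2, the product of one of its own target genes, marks it for destruction. Stress such as DNA damage frees p53 from MDM2, and p53 then raises genes for cell cycle arrest, repair, nucleotide supply, restraint of growth signalling and apoptosis. CBP and p300 acetylate p53 and histones and serve as its coactivators, and doxycycline inhibits translation on mitochondrial ribosomes. The layout asks whether expression of these targets depends on CBP and p300 and whether it responds to the mitochondrial stress.

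Levels are given as CPM, counts scaled to a common library total with TMM factors, and the totals ran from 46600324 to 51773300 counts. A gene is called higher or lower at a Benjamini-Hochberg adjusted p under 0.05 in edgeR's quasi-likelihood test, adjusted over all 13511 genes. Dox replicate 1 stood apart from the other 11 libraries: its Spearman correlation with Dox replicates 2 and 3 was 0.901 and 0.899, against 0.999 for every other pair within a group. The biological coefficient of variation was 20.7% with it and 1.52% without it, so results are also given without it. CPM is a level relative to the other RNA of a library, so fewer cells of a kind and less RNA per cell cannot be told apart. All 8 hepatocyte markers checked are in the table, with a summed level of 20700 to 21000 CPM in A-485 and Dox, 22500 to 22700 in A-485, 52400 to 64600 in Dox and 64500 to 65100 in DMSO. Of 5 endothelial markers PECAM1 and TIE1 are in the table, the other 3 (CDH5, VWF and KDR) are not, and they stood at a summed 11.1 to 11.4, 11.9 to 12.5, 5.54 to 6.38 and 5.8 to 6.05 CPM in the same order of groups. Of 5 stromal markers PDGFRB alone is in the table, at 1.17 to 1.5, 0.6 to 0.87, 3.28 to 5.9 and 5.16 to 5.7 CPM in that order of groups. The part of these markers in the results was not tested.

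Promoter windows of 300 bases, from 250 bases before to 50 after a transcript start (RefSeq, GRCh38.p14), were matched for 6 of the 9 genes. They were searched for a p53 site, written as the p53 half-site consensus in a pair with no spacer, 20 bases in all, allowing at most 3 mismatches. The consensus reads the same on both strands, and the mismatch limit was set after the windows had been seen. A match occurred in 2 of 4 MDM2 windows, 1 of 3 FAS windows and 1 of 3 SESN1 windows, against 5.2% of 35116 windows of the same length, and one with at most 2 mismatches in 0.649% of them. One window each is shown for MDM2 (chr12:68808767-68809066, plus strand), FAS (chr10:88991181-88991480, plus strand) and SESN1 (chr6:109008939-109009238, minus strand), because these hold a match, and one for BBC3 (chr19:47232618-47232917, minus strand), the gene with the largest response to doxycycline, which holds none. Each runs 5′ to 3′ on the gene's strand, and capitals mark the matches.
MDM2: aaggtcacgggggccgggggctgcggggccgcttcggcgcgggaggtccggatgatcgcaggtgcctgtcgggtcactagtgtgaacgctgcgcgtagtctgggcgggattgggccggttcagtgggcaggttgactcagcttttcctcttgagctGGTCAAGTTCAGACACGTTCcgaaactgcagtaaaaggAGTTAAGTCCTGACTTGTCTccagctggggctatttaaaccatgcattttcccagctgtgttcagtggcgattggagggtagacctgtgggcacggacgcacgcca
FAS: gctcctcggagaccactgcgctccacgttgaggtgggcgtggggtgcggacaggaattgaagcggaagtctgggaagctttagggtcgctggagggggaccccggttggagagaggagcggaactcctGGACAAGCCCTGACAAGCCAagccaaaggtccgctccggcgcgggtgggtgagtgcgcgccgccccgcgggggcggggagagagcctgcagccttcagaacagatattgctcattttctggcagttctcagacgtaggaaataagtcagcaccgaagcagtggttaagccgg
SESN1: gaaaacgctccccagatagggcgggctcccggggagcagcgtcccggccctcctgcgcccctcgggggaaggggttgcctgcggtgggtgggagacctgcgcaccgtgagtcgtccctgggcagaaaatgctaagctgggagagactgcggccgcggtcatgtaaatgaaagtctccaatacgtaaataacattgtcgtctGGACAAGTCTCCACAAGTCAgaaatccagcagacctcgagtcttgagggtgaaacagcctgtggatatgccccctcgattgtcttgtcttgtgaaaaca
BBC3: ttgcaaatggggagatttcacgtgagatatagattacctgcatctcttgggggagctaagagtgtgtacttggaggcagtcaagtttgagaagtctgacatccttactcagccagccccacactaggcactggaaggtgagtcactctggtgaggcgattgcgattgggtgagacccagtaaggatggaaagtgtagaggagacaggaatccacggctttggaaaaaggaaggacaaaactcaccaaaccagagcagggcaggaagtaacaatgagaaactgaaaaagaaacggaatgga

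The MDM2 window lies at a start inside the gene and holds 2 matches, with 2 mismatches at 94 bases before that start and with 3 mismatches at 56 bases before it, both in an intron of the GENCODE 29 annotation. The FAS match lies 122 bases before an internal start, in sequence that at least 1 annotated transcript uses as exon, and has no mismatch in its first half-site and 2 in its second. The SESN1 match lies 49 bases before an internal start, in an intron, with no mismatch in the first half-site and 3 in the second. The windows of BBC3, BAX and ZMAT3, 1, 1 and 2 in number, held no match. GENCODE 29 lists 4, 6 and 3 transcript starts for these genes, so some starts may lie outside the windows searched. None of the windows of these 6 genes held the C/EBP-ATF element TGATGNAA, which 3.62% of all windows contain on one strand or the other, or the cAMP response element TGACGTCA, found in 1.85%. A match is a description of the letters in these windows and was not tied to binding.

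MDM2 (ENSG00000135679, chromosome 12, 68808176 to 68850686, GRCh38), the ubiquitin ligase that closes the feedback loop on p53, was called in no comparison with all 12 libraries. It had 113, 116 and 115 CPM in A-485 and Dox, 93.6, 92.2 and 89.3 in A-485, 62.9, 114 and 114 in Dox and 108, 108 and 108 in DMSO. The A-485 libraries lay below those of A-485 and Dox and of DMSO without overlap, and Dox replicate 1 lay far below its group. With all libraries the log2 change of MDM2 was 0.32 ± 0.18 (SE, edgeR adjusted p = 0.42) for A-485 and Dox against A-485. For A-485 against DMSO it was -0.24 ± 0.18 (adjusted p = 0.31). Both passed the test without Dox replicate 1, at 0.32 ± 0.02 (edgeR adjusted p = 3.7e-19) and -0.24 ± 0.02 (adjusted p = 3e-14). Library totals in place of TMM turned the second of these to 0.11, which was called higher once Dox replicate 1 was left out. Of the exon length 9.21% is shared with other genes, among them the carboxypeptidase M gene on the opposite strand.

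**Figure D1:**
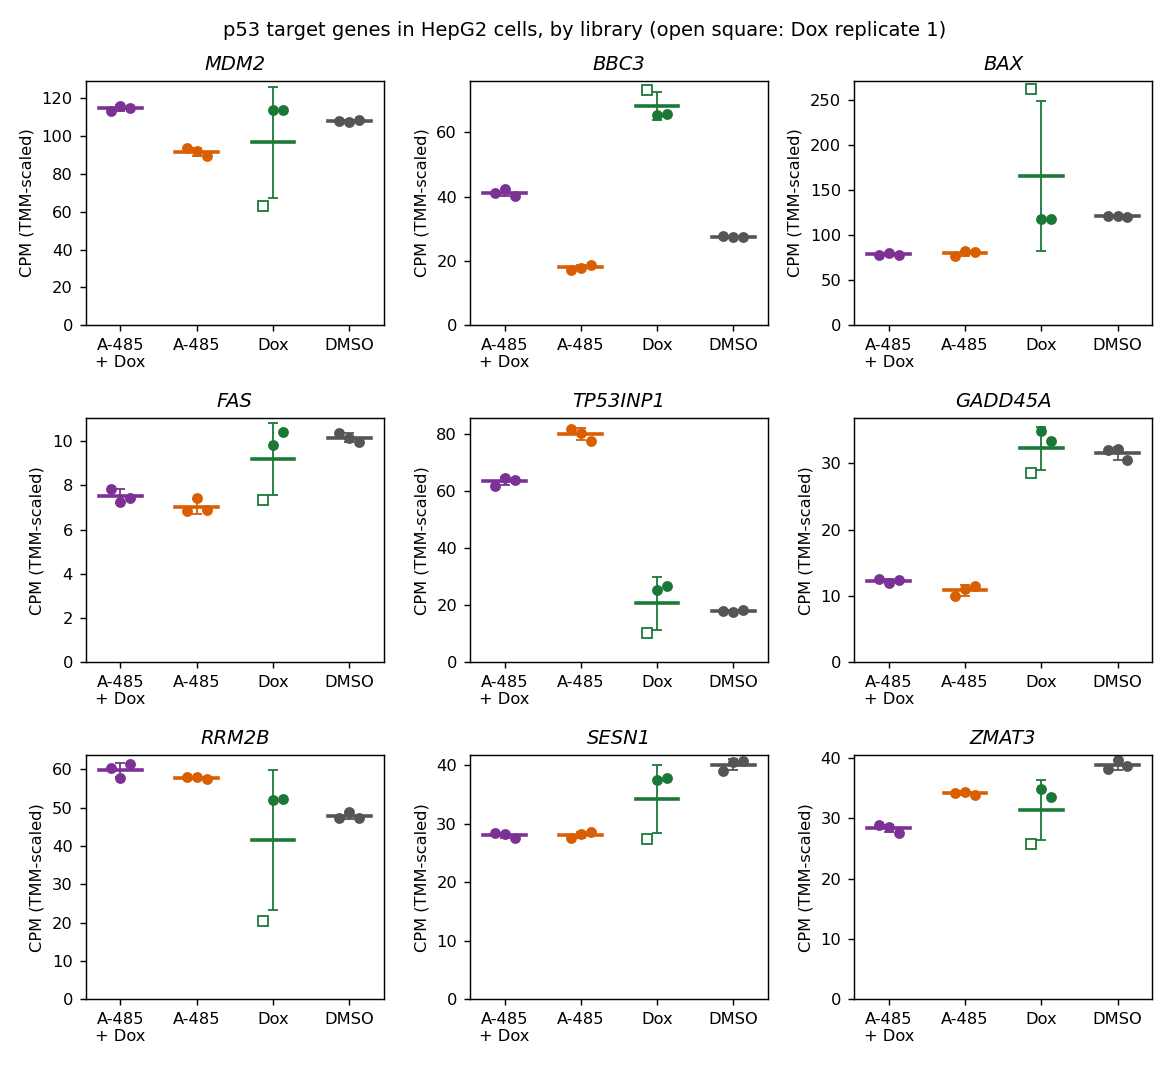
Level of each p53 target gene (CPM on TMM-scaled totals, vertical axis) in the 3 libraries of A-485 and Dox, A-485, Dox and DMSO, with points for libraries, lines for group means and bars for SD. The open square is Dox replicate 1; BBC3 is highest in Dox, TP53INP1 is high in both groups with A-485 and GADD45A is low in both.

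BBC3 (ENSG00000105327, chromosome 19, 47220822 to 47232766) encodes PUMA, a BH3-only protein that sets off apoptosis at the mitochondrion, and it was the only member called for doxycycline with all libraries. It had 41.1, 42.3 and 40.2 CPM in A-485 and Dox, 17.2, 17.9 and 18.7 in A-485, 73.1, 65.5 and 65.6 in Dox and 27.7, 27.4 and 27.5 in DMSO. The 4 groups did not overlap, with Dox highest, then A-485 and Dox, then DMSO, then A-485. BBC3 rose in Dox against DMSO by 1.31 ± 0.07 on the log2 scale (SE, edgeR adjusted p = 2.5e-06), a 2.47-fold increase. It also rose in A-485 and Dox against A-485, by 1.20 ± 0.07 (edgeR adjusted p = 7e-06). A-485 lowered it on either background, with a change of -0.72 ± 0.07 against Dox (edgeR adjusted p = 1.1e-05) and -0.62 ± 0.07 against DMSO (adjusted p = 3.6e-05). All 4 calls held without Dox replicate 1, at 1.25, 1.20, -0.67 and -0.62 in the same order.

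BAX (ENSG00000087088, chromosome 19, 48954815 to 48961798), the pore-forming protein that BH3-only proteins activate, fell in A-485 and Dox against Dox. Its level was 78.4, 80.1 and 78.1 CPM in A-485 and Dox, 76.8, 82 and 80.9 in A-485, 262, 118 and 118 in Dox and 122, 122 and 119.6 in DMSO. Both groups with A-485 lay below every library without it and overlapped each other, and Dox replicate 1 was above all other libraries. Against Dox the change in A-485 and Dox was -1.07 ± 0.26 (SE, edgeR adjusted p = 0.0061), and -0.58 ± 0.03 without Dox replicate 1; the call was lost in a fit of these 2 groups alone (adjusted p = 0.064). A-485 against DMSO was at -0.60 ± 0.26, which missed the threshold with all libraries (edgeR adjusted p = 0.081). With library totals it shrank to -0.25, also not called. With TMM it passed the threshold without Dox replicate 1 (edgeR adjusted p = 4.2e-30). For Dox against DMSO the value was 0.45 ± 0.26 (edgeR adjusted p = 0.25) and turned to -0.04 ± 0.03 without that library (adjusted p = 0.18).

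FAS (ENSG00000026103, chromosome 10, 88990582 to 89015785), the cell surface receptor that starts apoptosis from outside the cell, had the lowest level per exon length of the 9. It had 7.86, 7.24 and 7.44 CPM in A-485 and Dox, 6.83, 7.42 and 6.87 in A-485, 7.34, 9.83 and 10.4 in Dox and 10.4, 10.1 and 9.95 in DMSO. A-485 lowered FAS against DMSO by 0.53 ± 0.12 on the log2 scale (SE, edgeR adjusted p = 0.0038), with no overlap between the groups. Library totals shrank this change to -0.18, which was not called. Against Dox, the change with A-485 and Dox was -0.29 ± 0.12 (edgeR adjusted p = 0.056), which missed the threshold. It passed in DESeq2 (adjusted p = 0.0347), in limma-voom with quality weights (adjusted p = 3.99e-08) and in edgeR without Dox replicate 1, at -0.43 ± 0.07 (adjusted p = 5.1e-08), and the value turned to 0.09 with library totals. The limma-voom fit gave Dox replicate 1 a weight of 0.00376, so it all but left that library out too. The doxycycline comparisons of FAS were at 0.09 ± 0.12 with A-485 and -0.14 ± 0.12 without it, and neither passed the test in either set of libraries. FAS shares 8.93% of its exon length with ACTA2 on the opposite strand.

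TP53INP1 (ENSG00000164938, chromosome 8, 94925972 to 94949411), a stress-induced protein with roles in autophagy and p53 activation, had the largest change of the 9. It had 61.9, 64.6 and 64 CPM in A-485 and Dox, 81.8, 80.4 and 77.7 in A-485, 10.1, 25.2 and 26.7 in Dox and 18, 17.5 and 18.4 in DMSO. Each library with A-485 was above each library without it, and the A-485 group was also above A-485 and Dox without overlap. A-485 raised TP53INP1 against DMSO by 2.15 ± 0.29 on the log2 scale (SE, edgeR adjusted p = 0.00014), a 4.45-fold increase, and in A-485 and Dox it rose against Dox by 1.61 ± 0.28 (adjusted p = 0.00084). Without Dox replicate 1 the rise against Dox was smaller, at 1.29 ± 0.04. Dox replicates 2 and 3 lay above DMSO and Dox replicate 1 below it, and Dox against DMSO was at 0.21 ± 0.28 with all libraries (edgeR adjusted p = 0.62). Leaving that library out, TP53INP1 rose in Dox by 0.53 ± 0.05 (edgeR adjusted p = 5.4e-15) and fell in A-485 and Dox against A-485, at -0.33 ± 0.03 (adjusted p = 1.3e-16). With all libraries the last comparison, at -0.33 ± 0.28, missed the threshold (edgeR adjusted p = 0.66).

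GADD45A (ENSG00000116717, chromosome 1, 67685061 to 67688338), which acts in growth arrest and DNA repair, was the member that A-485 lowered most. Levels were 12.6, 12 and 12.4 CPM in A-485 and Dox, 9.98, 11.1 and 11.5 in A-485, 28.6, 34.9 and 33.3 in Dox and 32, 32.2 and 30.5 in DMSO. Every library with A-485 was below every library without it. Against DMSO the change in A-485 was -1.54 ± 0.09 (SE, edgeR adjusted p = 3.4e-07), a level 0.345 times that of DMSO, and against Dox the change in A-485 and Dox was -1.39 ± 0.09 (adjusted p = 7.4e-07). The doxycycline comparisons were small and did not pass the test, at 0.18 ± 0.09 in A-485 and Dox against A-485 (edgeR adjusted p = 0.33) and 0.03 ± 0.09 in Dox against DMSO (adjusted p = 0.8). They passed it without Dox replicate 1, at 0.18 (edgeR adjusted p = 0.0017) and 0.11 (adjusted p = 0.015).

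RRM2B (ENSG00000048392, chromosome 8, 102204502 to 102239118), the p53-inducible subunit of ribonucleotide reductase that supplies nucleotides for repair and for mitochondrial DNA, had its highest levels in the groups with A-485. It had 60.4, 57.8 and 61.3 CPM in A-485 and Dox, 57.9, 57.9 and 57.5 in A-485, 20.4, 52 and 52.2 in Dox and 47.3, 49 and 47.4 in DMSO. The libraries with A-485 lay above all others, and Dox replicate 1 was far below the other Dox libraries. No comparison passed the test with all libraries: A-485 against DMSO was at 0.27 ± 0.28 (SE, edgeR adjusted p = 0.44) and A-485 and Dox against Dox at 0.52 ± 0.28 (adjusted p = 0.13). Library totals moved these values to 0.62 and 0.87, neither called. With Dox replicate 1 left out RRM2B rose by 0.27 ± 0.03 in A-485 against DMSO (edgeR adjusted p = 8.5e-13) and by 0.20 ± 0.03 in A-485 and Dox against Dox (adjusted p = 5.4e-08). For Dox against DMSO the value was -0.20 ± 0.28 with all libraries (edgeR adjusted p = 0.61) and turned to a rise of 0.12 ± 0.03 without that library (adjusted p = 0.00098).

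SESN1 (ENSG00000080546, chromosome 6, 108986437 to 109094819), a sestrin that restrains the growth kinase mTORC1, fell in both comparisons of A-485. It had 28.4, 28.2 and 27.5 CPM in A-485 and Dox, 27.6, 28.2 and 28.6 in A-485, 27.4, 37.4 and 37.8 in Dox and 39.1, 40.6 and 40.6 in DMSO. The 2 groups with A-485 overlapped each other and lay below DMSO, and Dox replicate 1 lay just below both while the other Dox libraries lay between them and DMSO. A-485 against DMSO was at -0.51 ± 0.11 (SE, edgeR adjusted p = 0.0029), and at -0.16, not called, with library totals. A-485 and Dox against Dox was at -0.29 ± 0.11 (edgeR adjusted p = 0.044), a call that was lost in 11 of the 12 fits that left out 1 library and was kept without Dox replicate 1, at -0.42 ± 0.04 (adjusted p = 1.3e-15). Library totals turned it to 0.10. In A-485 and Dox against A-485 the value was -0.01 ± 0.11 (edgeR adjusted p = 1), and in Dox against DMSO -0.23 ± 0.11 (adjusted p = 0.18), or -0.09 ± 0.04 without Dox replicate 1 (adjusted p = 0.019).

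ZMAT3 (ENSG00000172667, chromosome 3, 179017223 to 179072279), an RNA-binding zinc finger protein that acts in p53-dependent tumour suppression, was highest in DMSO and lowest in A-485 and Dox among the libraries other than Dox replicate 1. Its levels were 28.8, 28.5 and 27.6 CPM in A-485 and Dox, 34.2, 34.4 and 33.8 in A-485, 25.7, 34.8 and 33.5 in Dox and 38.1, 39.7 and 38.7 in DMSO. The A-485 libraries and Dox replicates 2 and 3 lay in the same range, and DMSO lay above all other libraries. No comparison passed the test with all libraries, with values from -0.31 ± 0.10 for Dox against DMSO (SE, edgeR adjusted p = 0.07) to -0.15 ± 0.10 for A-485 and Dox against Dox (adjusted p = 0.24). Once Dox replicate 1 was left out ZMAT3 fell in all 4 comparisons of 2 groups: by 0.27 ± 0.04 in A-485 and Dox against Dox, by 0.27 ± 0.03 in A-485 and Dox against A-485, by 0.19 ± 0.03 in A-485 against DMSO and by 0.18 ± 0.04 in Dox against DMSO (highest edgeR adjusted p = 1.7e-05). With library totals its A-485 comparisons turned to 0.24 against Dox and 0.16 against DMSO, neither called, and the second was called higher once Dox replicate 1 was left out.

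**Figure D2:**
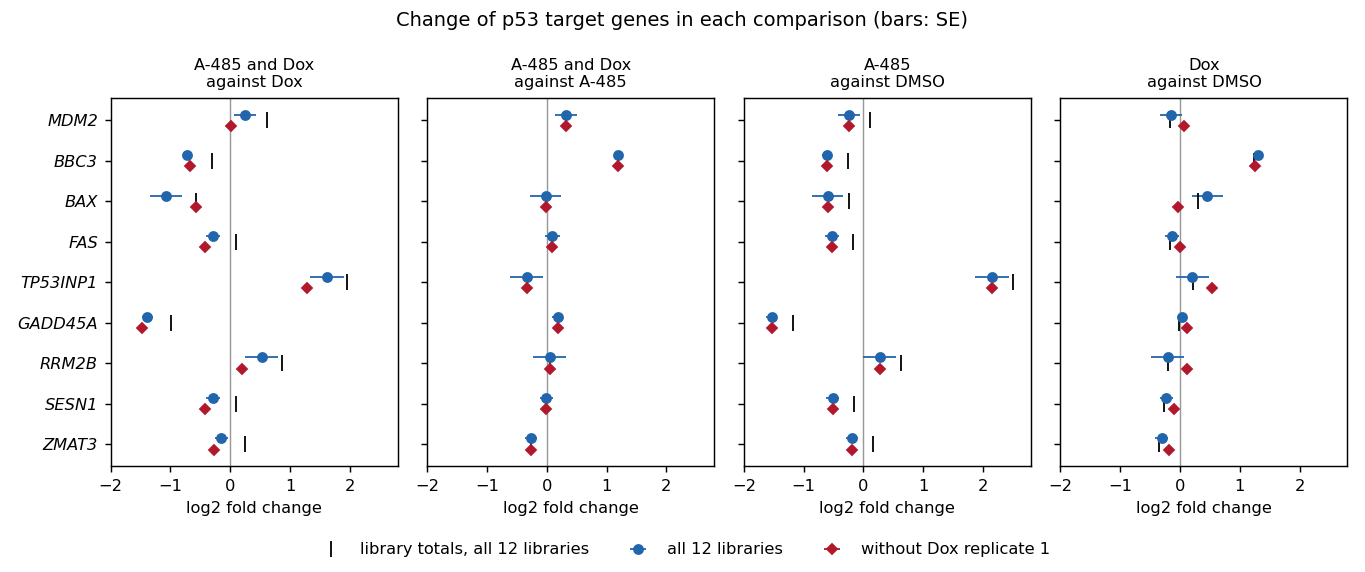
Log2 fold change of each p53 target gene (horizontal axis) in the 4 comparisons of 2 groups, with all 12 libraries (circles), without Dox replicate 1 (diamonds) and with library totals in place of TMM (ticks); bars are SE. GADD45A and TP53INP1 move furthest with A-485 and BBC3 with doxycycline; library totals shift the A-485 comparisons to the right.

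Counted over the 9 genes, A-485 lowered more of them than it raised. With both compounds against Dox 1 rose and 4 fell, while 60% of all genes were called (27.1% higher and 32.9% lower). In A-485 against DMSO 1 rose and 4 fell, while 53.3% of all genes were called (26.3% higher and 27.1% lower). The 4 that fell were GADD45A, BBC3 and SESN1 in both comparisons, with BAX against Dox and FAS against DMSO. These are shares of 5 in 9 in each, near the background. The median change of the 9 was -0.29 against Dox and -0.51 against DMSO, where the median of all genes was -0.06 and 0.04. Without Dox replicate 1 the counts were 2 higher and 6 lower against Dox, with 87.8% of all genes called (44.2% higher and 43.6% lower), and 2 higher and 7 lower against DMSO, with 90.3% called (46.6% higher and 43.7% lower). With library totals they were 1 higher and 3 lower against Dox, where 62.8% of all genes were called (42.1% higher and 20.7% lower), and 1 higher and 2 lower against DMSO, where 58.8% were called (40.7% higher and 18.1% lower), and the median of all genes moved to 0.36 and 0.39. With library totals and without Dox replicate 1, a setting chosen after seeing the data, they were 3 higher and 5 lower against Dox, where 90.4% of all genes were called (59.3% higher and 31.1% lower), and 4 higher and 5 lower against DMSO, where 92.2% were called (63.6% higher and 28.7% lower). With library totals BBC3 stood at -0.27 and GADD45A at -1.19 in A-485 against DMSO, both still called. A change of scaling shifts all genes of a library alike, so a change relative to the all-gene median is nearly the same under both scalings by construction. Relative to that median, changes in A-485 against DMSO ran from -1.58 for GADD45A to 2.11 for TP53INP1, with BAX at -0.64, SESN1 at -0.55 and MDM2 at -0.28.

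Doxycycline moved fewer of the 9 than A-485 did, and fewer of all genes too. Under A-485, in A-485 and Dox against A-485, only BBC3 was called of the 9, as higher, while 7.39% of all genes were called (3.74% higher and 3.66% lower). In Dox against DMSO BBC3 alone rose too, while 16.1% of all genes were called (9.01% higher and 7.08% lower). A share of 1 in 9 in each is near the background. These 2 comparisons share no library, but each of their groups also enters a comparison of A-485. Leaving out Dox replicate 1, MDM2, BBC3 and GADD45A rose and ZMAT3 and TP53INP1 fell in A-485 and Dox against A-485, with 66% of all genes called (29.9% higher and 36.1% lower). In Dox against DMSO without that library 5 rose (BBC3, TP53INP1, RRM2B, GADD45A and MDM2) and 2 fell (SESN1 and ZMAT3), again with 66% of all genes called (32.8% higher and 33.3% lower). The median change of the 9 with all libraries was -0.14 in Dox against DMSO and 0.05 in A-485 and Dox against A-485, where all genes had 0.03 and -0.02. Without Dox replicate 1, apart from BBC3 and TP53INP1, every one of these changes was between -0.27 and 0.32 on the log2 scale.

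Whether the doxycycline effect differs under A-485 was tested as the interaction, the effect with A-485 minus the effect without it. With all 12 libraries edgeR called 0 of the 9 genes, with 0 at an unadjusted p under 0.05, while 2.58% of all genes were called (1.25% higher and 1.32% lower). DESeq2 called 0 and limma-voom with quality weights 2. The limma-voom fit gave Dox replicate 1 a weight of 0.00376, so it all but left that library out. The share of all genes called in these 2 fits is not given here. Without Dox replicate 1 edgeR called 2 of the 9, 1 higher and 1 lower, while 48.4% of all genes were called (21.8% higher and 26.6% lower). TP53INP1 was at -0.86 ± 0.05 (SE, edgeR adjusted p = 4e-20), with a fall under A-485 and a rise without it. MDM2 was at 0.25 ± 0.03 (edgeR adjusted p = 4.9e-09), with a larger rise under A-485. With library totals as well, a setting chosen after seeing the data, both stayed called, at -0.94 and 0.18. In that setting 1 of the 9 was called higher and 4 lower, where 1940 of all 13511 genes were called higher and 5226 lower. For BBC3 the interaction was -0.05 ± 0.05 (edgeR adjusted p = 0.39), so the 2 rises, of 1.20 and 1.25, were not told apart. Over all 12 libraries the values of TP53INP1, MDM2 and BBC3 were -0.54 ± 0.39, 0.48 ± 0.26 and -0.11 ± 0.10 (edgeR adjusted p = 0.49, 0.41 and 0.55).

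**Figure D3:**
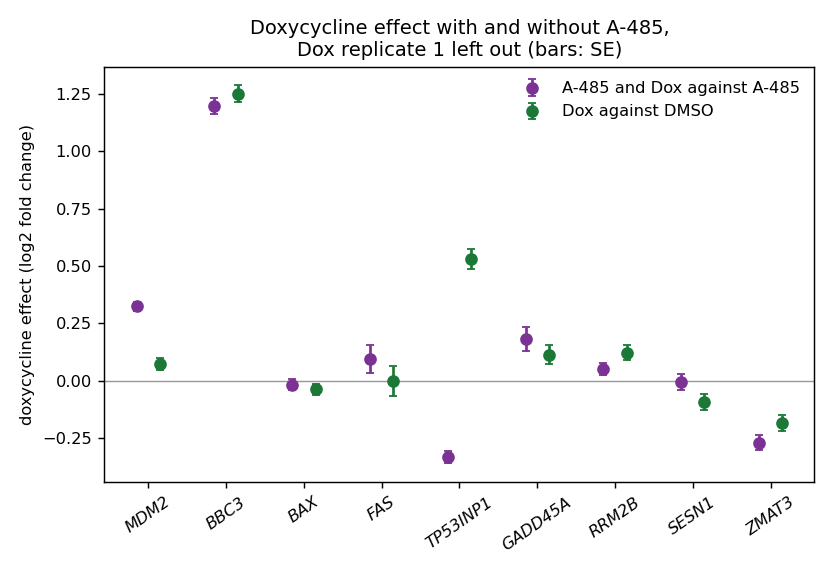
Effect of doxycycline (log2 fold change, vertical axis) on each p53 target gene in cells with A-485 (purple) and without it (green), both fitted without Dox replicate 1; bars are SE. TP53INP1 lies on opposite sides of 0, and the values of BBC3 are 1.20 and 1.25.

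The deviation of Dox replicate 1 went with exonic length. Over all genes in 10 equal bins by length, the median log2 difference of that library from Dox replicates 2 and 3 ran from 1.13 for the shortest genes to -0.71 for the longest. BAX, with 2587 exonic bases, was at 1.15 where its bin had a median of 0.42, and MDM2, with 13284 bases, was at -0.85 where its bin had -0.71. BBC3, at 0.16, and ZMAT3, at -0.41, lay within 0.3 of their bin medians of 0.42 and -0.5. RRM2B and TP53INP1, with 5548 and 5676 bases, were at -1.35 and -1.36, below their bin medians of -0.11 and -0.28, and GADD45A, with 2069 bases, was at -0.25 where its bin had 0.74. FAS and SESN1 were at -0.46 and -0.45 where their bins had -0.02 and -0.11.

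**Figure D4:**
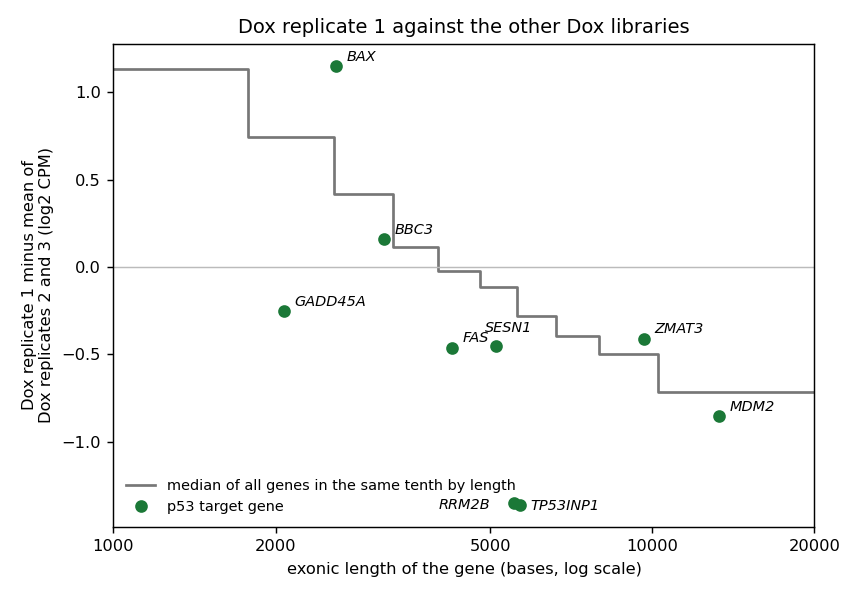
Difference of Dox replicate 1 from the mean of Dox replicates 2 and 3 in log2 CPM (vertical axis) against exonic length in bases (horizontal, log scale) for the 9 p53 target genes, with the median of all genes in each of 10 bins of length as a stepped line. BAX is highest at 1.15 and RRM2B and TP53INP1 are lowest at -1.35 and -1.36.

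Of 28 regulators of p53 listed 26 are in the table. In A-485 and Dox against Dox 10 rose and 6 fell, where 27.1% of all genes were called higher and 32.9% lower. These counts were 13 and 12 without Dox replicate 1 (44.2% and 43.6% of all genes), 11 and 4 with library totals (42.1% and 20.7%), and 6 and 5 without any 1 A-485 and Dox library. For A-485 against DMSO 6 rose and 6 fell, where 26.3% of all genes were called higher and 27.1% lower. They were 14 and 11 without Dox replicate 1 (46.6% and 43.7% of all genes), and 8 and 5 with library totals (40.7% and 18.1%). Their median change was 0.23 and 0.26 in these 2 comparisons, where all genes had -0.06 and 0.04. The damage kinases CHEK1 and CHEK2 fell with A-485, at -1.56 ± 0.08 and -1.30 ± 0.09 against DMSO (edgeR adjusted p = 1.5e-07 and 9.6e-07). The acetyltransferase gene KAT2B and PPP1R13B, a p53-binding cofactor, rose against DMSO by 1.76 ± 0.30 and 1.27 ± 0.10 (edgeR adjusted p = 0.00066 and 3.1e-06). CDKN2A, whose ARF product inhibits MDM2, rose too, by 1.50 ± 0.48 (edgeR adjusted p = 0.023), a call that was lost without any 1 DMSO library or A-485 replicate 3. MDM4, a partner of MDM2 that also restrains p53, was the only regulator called in A-485 and Dox against A-485, at 0.52 ± 0.10 (edgeR adjusted p = 0.012), with 27.9, 29 and 27.9 CPM in A-485 and Dox against 19.7, 20.6 and 18.8 in A-485. That call was lost with library totals and without A-485 replicate 1, A-485 replicate 3 or A-485 and Dox replicate 2. All genes were called higher in 3.74% and lower in 3.66%; without Dox replicate 1 there were 11 higher and 3 lower (29.9% and 36.1% of all genes). In Dox against DMSO 2 rose, among them RCHY1, a p53 ubiquitin ligase, and CHEK1, CHEK2 and the p53 relative TP73 fell, where 9.01% of all genes were called higher and 7.08% lower (11 higher and 7 lower without Dox replicate 1, against 32.8% and 33.3% of all genes). The calls of RCHY1 and CHEK1 were lost with library totals. Leaving out any 1 DMSO, A-485 or A-485 and Dox library left 0 higher and 2 lower there.

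Of 50 other known p53 targets listed, 45 are in the table and they went both ways with A-485. In A-485 and Dox against Dox 12 rose and 18 fell, where 27.1% of all genes were called higher and 32.9% lower (18 and 12 with library totals, against 42.1% and 20.7%). In A-485 against DMSO 11 rose and 20 fell, where 26.3% of all genes were called higher and 27.1% lower (15 and 17 with library totals, against 40.7% and 18.1%). Medians were 0.009 and -0.21 where all genes had -0.06 and 0.04. Without Dox replicate 1 the counts were 18 higher and 24 lower, with 44.2% and 43.6% of all genes, and 17 higher and 24 lower, with 46.6% and 43.7%, in the same order. AEN, a p53-induced nuclease, fell to 9.57, 10 and 10.1 CPM in A-485, against 80.9, 80.5 and 81 in DMSO, a change of -3.03 ± 0.17 (SE, edgeR adjusted p = 2.6e-07). E2F7, a repressor of cell cycle genes, and SPATA18, a factor in mitochondrial quality control, changed by -2.53 ± 0.32 and -1.76 ± 0.18 (edgeR adjusted p = 9.7e-05 and 2.4e-05). SERTAD1, a cell cycle cofactor, rose to 86.8, 88.3 and 89.9 CPM in A-485, against 6.38, 6.02 and 6.15 in DMSO, at 3.84 ± 0.35 (edgeR adjusted p = 9.8e-06). TNFRSF10D, a decoy receptor for TRAIL, rose by 1.62 ± 0.06 (edgeR adjusted p = 1.2e-08). FDXR and PHLDA3, a ferredoxin reductase and an inhibitor of AKT, fell against Dox, at -2.47 ± 0.36 and -1.55 ± 0.39 (edgeR adjusted p = 0.00025 and 0.0063), or -1.78 and -0.77 without Dox replicate 1.

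With doxycycline, 7 of the 45 rose and 5 fell in Dox against DMSO, where 16.1% of all genes were called. These counts were 20 and 19 without Dox replicate 1, where 66% of all genes were called. They were 7 and 3 with library totals, where 1154 of all 13511 genes rose and 621 fell. Without 1 DMSO library they were 4 and 2 or 3. Under A-485 7 rose and 1 fell, where 7.39% of all genes were called (19 and 12 without Dox replicate 1, where 66% were). With library totals 7 rose and 0 fell, where 399 of all 13511 genes rose and 429 fell. Without any 1 DMSO, A-485 or A-485 and Dox library the counts were 4 and 1. SESN2, the sestrin paralog of SESN1, had 161, 157 and 158 CPM in A-485 and Dox, 47.4, 48 and 46.9 in A-485, 93.5, 112 and 111 in Dox and 17.7, 18 and 17.1 in DMSO. It rose with doxycycline by 1.74 ± 0.08 under A-485 and by 2.58 ± 0.08 without it (SE, edgeR adjusted p = 1e-06 and 1.9e-07), and also with A-485 against DMSO, by 1.43 ± 0.08 (adjusted p = 2.1e-07), where SESN1 fell. Its interaction was -0.84 ± 0.11 (edgeR adjusted p = 0.0043), the only call among the 45 for the interaction with TMM and all 12 libraries, where 2.58% of all genes were called. With library totals it was not called, at -0.79, and 1 other of the 45 was, higher, where 88 of all 13511 genes were called higher and 176 lower. Without Dox replicate 1 there were 17 higher and 10 lower, where 48.4% of all genes were called. The secreted stress hormone GDF15 rose by 1.37 ± 0.20 under A-485 and by 0.82 ± 0.20 without it (edgeR adjusted p = 0.003 and 0.02), or 0.49 in Dox against DMSO without Dox replicate 1. Its call in Dox against DMSO was lost without any 1 DMSO library. BTG2, an antiproliferative gene, fell in both, at -0.41 ± 0.07 and -0.36 ± 0.07 (edgeR adjusted p = 0.0064 and 0.0079), and neither was called with library totals, at -0.41 and -0.41.

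CDKN1A, which encodes the cell cycle inhibitor p21 and is a classic p53 target, was highest when both compounds were present. It had 142, 137 and 136 CPM in A-485 and Dox, 78, 79.7 and 80.9 in A-485, 128, 72.3 and 71.1 in Dox and 86, 85.2 and 84 in DMSO. The A-485 and Dox libraries lay above every other library. It rose in A-485 and Dox against A-485, by 0.80 ± 0.19 (SE, edgeR adjusted p = 0.035), a call that was lost without any 1 DMSO, A-485 or A-485 and Dox library, while A-485 against DMSO was at -0.10 ± 0.19 and did not pass the test (adjusted p = 0.7). CDKN1A in A-485 and Dox was also called higher against Dox. That call was lost without Dox replicate 2, Dox replicate 3 or A-485 and Dox replicate 1. Dox replicates 2 and 3 lay below the DMSO libraries and Dox replicate 1 above them. The interaction was 0.71 ± 0.27 with all libraries, which missed the threshold (edgeR adjusted p = 0.24), and 1.04 ± 0.04 without Dox replicate 1 (adjusted p = 8.4e-31).

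Of 24 partners and paralogs of the 9 genes listed, some of which (such as SESN2, PMAIP1 and MDM4) also stand in a list above, 22 are in the table, with 11 higher and 5 lower in A-485 and Dox against Dox, where 27.1% of all genes were higher and 32.9% lower. These counts were 12 and 2 with library totals (42.1% and 20.7% of all genes), 13 and 7 without Dox replicate 1 (44.2% and 43.6%), and 9 or 10 and 2 without 1 A-485 and Dox library. In A-485 against DMSO there were 10 higher and 5 lower, where 26.3% of all genes were higher and 27.1% lower (12 and 5 with library totals, against 40.7% and 18.1%, and 13 and 9 without Dox replicate 1, against 46.6% and 43.7%). Their medians were 0.22 and 0.34, where all genes had -0.06 and 0.04. MCL1, an inhibitor of apoptosis that BBC3 can bind, rose to 646, 636 and 639 CPM in A-485, against 277, 272 and 274 in DMSO, at 1.22 ± 0.17 (SE, edgeR adjusted p = 0.00016). BCL2L1, another such inhibitor, fell to 146, 148 and 151 CPM in A-485, against 302, 301 and 302 in DMSO, at -1.02 ± 0.22 (edgeR adjusted p = 0.003); 43% of its exon length is shared with ABALON on the opposite strand. BAK1, which forms pores as BAX does, rose by 0.95 ± 0.14 (edgeR adjusted p = 0.00027), where BAX stood at -0.60. RRM1 and RRM2, which encode other subunits of ribonucleotide reductase, fell with A-485, at -1.37 ± 0.24 and -1.41 ± 0.23 against DMSO (edgeR adjusted p = 0.00086 and 0.00045), where RRM2B stood at 0.27. GADD45B, the paralog of GADD45A, had 19.9, 18.6 and 19.2 CPM in A-485 and Dox, 11.8, 13.3 and 13 in A-485, 11.1, 9.11 and 9.41 in Dox and 14.7, 13.9 and 15 in DMSO. It rose with doxycycline under A-485 and fell without A-485, with an interaction of 1.16 ± 0.13 (edgeR adjusted p = 0.0021). In A-485 and Dox against A-485 the 4 that rose were SESN2, GADD45B, MDM4 and PMAIP1, where 3.74% of all genes rose (8 higher and 10 lower without Dox replicate 1, where 29.9% rose and 36.1% fell). In Dox against DMSO SESN2 and PMAIP1 rose and GADD45B and BCL2 fell, where 16.1% of all genes were called (6 and 9 without that library, where 66% were), and BCL2 was lost with library totals and without any 1 DMSO library. PMAIP1 and BCL2 are named after their values were seen.

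**Figure D5:**
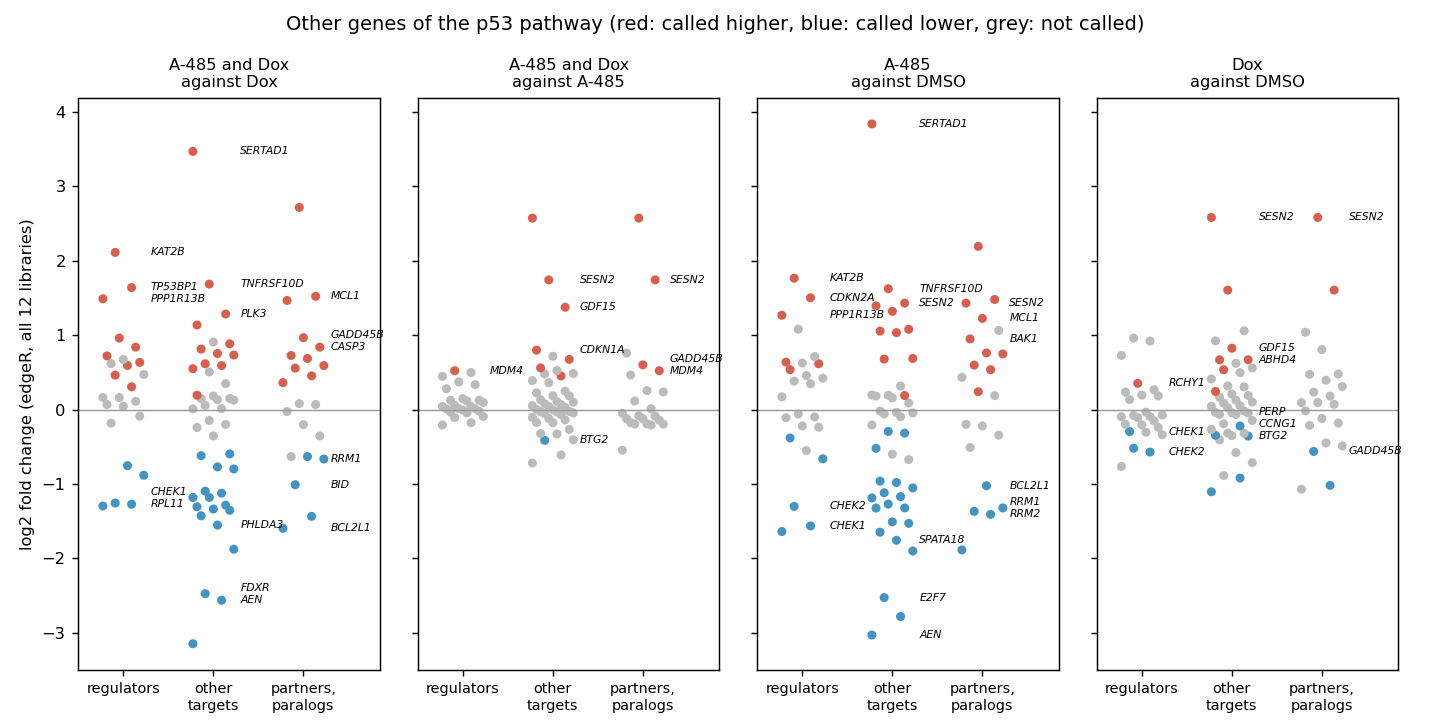
Log2 fold change (vertical axis, edgeR, all 12 libraries) of the genes reported here from 3 lists around p53, its regulators, other known targets and partners or paralogs of the 9 genes, in the 4 comparisons of 2 groups. Red points were called higher, blue lower and grey not called; names mark the genes chosen by rule, such as SERTAD1 and AEN in A-485 against DMSO and SESN2 with doxycycline.

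Per kilobase of exon, BAX was the most abundant of the 9 in every group, with a mean level of 30.5 CPM per kb in A-485 and Dox, 30.9 in A-485, 64.1 in Dox (45.5 in replicates 2 and 3) and 46.8 in DMSO. FAS was the least abundant, at 1.77, 1.65, 2.16 and 2.39 CPM per kb in the same order. TP53INP1 was second lowest in DMSO, at 3.17, and second highest in A-485, at 14.1. BBC3 stood at 13 in A-485 and Dox, 5.65 in A-485, 21.4 in Dox and 8.66 in DMSO.

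The 9 genes did not share one pattern. Likeness was measured as the root mean square difference in log2 CPM relative to the DMSO mean, over the 9 libraries outside DMSO, among 9590 other genes whose mean log2 CPM was at least 3. The closest pair of members was FAS and SESN1, at 0.0835, and the member nearest to ZMAT3 was SESN1, at 0.198. Genes outside the 9 lay nearer still, with SMARCC1 for FAS (0.0767), LAMP2 for SESN1 (0.0457) and SPTAN1 for ZMAT3 (0.0439). A member has 8 others to be compared with, so its nearest of 9590 genes will tend to be closer. BBC3 had no member nearer than BAX, at 0.926, and TP53INP1 none nearer than RRM2B, at 1.41. Outside the 9, the nearest genes were EPRS and HERPUD1 for BBC3 (0.251 and 0.273), PINK1 and FAM214A for TP53INP1 (0.192 and 0.21), CCNE1 and POLD3 for GADD45A (0.114 and 0.115), RPL7 for BAX (0.0431) and P4HA1 and GNAI3 for MDM2 (0.0417 and 0.063). Over the 8 libraries left without Dox replicate 1 the nearest were HERPUD1 and SHMT2 for BBC3 (0.146 and 0.187), FAM214A and TMEM173 for TP53INP1 (0.144 and 0.145), YIF1A and FAM102A for GADD45A (0.0802 and 0.0944), RPS16 and RPLP1 for BAX (0.0254 and 0.0291) and P4HA1 and TXNL1 for MDM2 (0.0326 and 0.0415).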

How the data were processed

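Poly(A) RNA of 12 HepG2 libraries was compared, 3 in each of 4 groups taken from the sample titles. The authors deposited raw counts, whole reads per gene; per the submitters' processing notes reads were aligned with STAR 2.6.0a to GRCh38 and counted with HTSeq 0.10.0. No strand setting was found among the sources used here, so antisense neighbours may not be separated. The 4 rows that name no gene held 9.1 to 12.3% (ambiguous), 2.96 to 3.76% (several alignments), 3.3 to 4.09% (outside genes) and 1.8 to 8.93% (unmapped) of the reads and were left out.

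Counts were tested in R 4.3.3 with edgeR 4.0.16 (filterByExpr, which removed 0 genes, TMM, glmQLFit with robust estimation, glmQLFTest) in a model of the 4 group means over the 12 libraries, with Benjamini-Hochberg adjustment over 13511 genes. Each SE is the absolute log2 change divided by the square root of F. Log2 CPM for likeness and deviations used a prior count of 2. Alternatives were library totals, DESeq2 1.42.0, limma-voom with quality weights (limma 3.58.1), a minimum mean of 5 CPM, a replicate block, fits of 2 groups only, and each library left out; library totals without Dox replicate 1 were added after seeing the data. The fits were tested on simulated data in which few genes changed and no library stood apart. That test therefore does not cover Dox replicate 1 or comparisons in which most genes were called. Some listed genes are not reported here by name or value. The 9 genes and all lists were chosen with earlier results of these data known. From each list and comparison, up to 3 called genes per direction with the largest change and a mean log2 CPM of 3 or more could be named, and a gene outside this rule is named only to complete a short count or where a result turns on it. Positions, exon lengths and overlaps are from GENCODE 29 and promoter windows from RefSeq (GRCh38.p14). Replicates differed by more than sampling noise (chi-square per degree of freedom from 1.32 upward) and were counted separately. Except for low counts such as those of PMAIP1, counts of this depth leave little counting error, and any such error covers reads, not molecules.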

Additional observations from a re-analysis of the deposited data

Results flagged for a closer look

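Leaving out Dox replicate 1, the effect of doxycycline differed between cells with and without A-485 for 2 of the 9 genes, by the edgeR test of the difference itself, where 48.4% of all genes were called for it. TP53INP1 had a difference of -0.86 on the log2 scale (SE 0.05, edgeR adjusted p = 4e-20): A-485 and Dox had 61.9, 64.6 and 64 CPM and A-485 81.8, 80.4 and 77.7, while Dox replicates 2 and 3 had 25.2 and 26.7 and DMSO 18, 17.5 and 18.4. Every A-485 and Dox library was below every A-485 library, and Dox replicates 2 and 3 were above every DMSO library, while Dox replicate 1, at 10.1 CPM, was below it. MDM2 had a difference of 0.25 (SE 0.03, edgeR adjusted p = 4.9e-09). With all 12 libraries neither passed the test.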

How the results depend on the processing

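The number of the 9 genes called was 5 in A-485 and Dox against Dox, 1 in A-485 and Dox against A-485, 5 in A-485 against DMSO, 1 in Dox against DMSO and 0 in the interaction. In that order limma-voom with quality weights called 8, 5, 9, 7 and 2, and library totals without Dox replicate 1 called 8, 5, 9, 6 and 5. Fits of 2 groups only called 3, 6, 9 and 1 in the first 4. Library totals called 3 in A-485 against DMSO, and DESeq2 called 2 in Dox against DMSO. Leaving out 1 library gave 4 to 8, 1 to 5, 5 to 9, 1 to 7 and 0 to 2, with the highest in each case without Dox replicate 1; without Dox replicate 2 the count in Dox against DMSO was 2, as ZMAT3 fell. The replicate numbers did not pair the libraries: of 18 same-numbered pairs 1 had a correlation of deviations over 0.1 (range -0.25 to 0.11), and no library correlated best with its own number in all other groups. The replicate block gave 4, 1, 5, 1 and 0 calls. The share of all genes called is not given here for limma-voom, DESeq2, fits of 2 groups or the replicate block. Nor is it given for fits that left out 1 library other than Dox replicate 1. Under library totals without Dox replicate 1, doxycycline raised 4017 and lowered 4894 of all 13511 genes in cells with A-485. In cells without A-485 it raised 5767 and lowered 3318. The interaction was called higher for 1940 genes and lower for 5226. The 5, 6 and 5 of the 9 genes called there are near this background. A minimum mean of 5 CPM changed no call of the 9 genes.

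Some values changed sign; the cause was not tested except where the scaling itself moved all genes. Library totals turned A-485 and Dox against Dox to 0.0913 for FAS, 0.10 for SESN1 and 0.24 for ZMAT3 (0.00455 without Dox replicate 1), A-485 against DMSO to 0.11 for MDM2 and 0.16 for ZMAT3 (0.11 and 0.16 without that library, both then called higher), and Dox against DMSO to -0.0126 for GADD45A. Library totals without that library put Dox against DMSO at 0.15 for MDM2, 0.0714 for FAS and 0.20 for RRM2B, and the interaction at -0.00806 for GADD45A, -0.16 for ZMAT3 and -0.15 for RRM2B. In limma-voom Dox against DMSO was at 0.0718 for MDM2, -0.0358 for BAX and 0.12 for RRM2B, and the interaction at 0.00537 for BAX, -0.0919 for ZMAT3 and -0.0787 for RRM2B. In the fit of 2 groups A-485 and Dox against A-485 was at 0.00314 for BAX and 0.0156 for SESN1. Over the libraries left out singly, A-485 and Dox against A-485 ranged over -0.0458 to 0.000838 for BAX and -0.0196 to 0.00775 for SESN1. Dox against DMSO ranged over -0.29 to 0.073 for MDM2, -0.0379 to 0.65 for BAX, -0.40 to 0.12 for RRM2B, -0.0229 to 0.11 for GADD45A and -0.0207 to 0.53 for TP53INP1. The interaction ranged over -0.67 to 0.0197 for BAX, -0.0851 to 0.12 for ZMAT3 and -0.0718 to 0.45 for RRM2B. Of the other single-gene values under an alternative, 734 kept direction and side of the threshold, 62 passed it in an alternative alone and 16 lost it in an alternative.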

Other observations

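Some relatives of the 9 genes outside the naming rule, noted after their values were seen, moved as well. PMAIP1, which encodes the BH3-only protein NOXA, had 4.25, 3.79 and 4.55 CPM in A-485 and Dox, 0.655, 0.716 and 0.741 in A-485, 3.22, 5.79 and 7.04 in Dox and 1.57, 1.72 and 2 in DMSO. Like BBC3 it rose with doxycycline both under A-485, by 2.57 ± 0.26, and without it, by 1.60 ± 0.25 (SE, edgeR adjusted p = 0.00036 and 0.0024), and fell in A-485 against DMSO, at -1.32 ± 0.26 (adjusted p = 0.0019). Its A-485 and Dox libraries overlapped those of Dox through Dox replicate 1 alone. Dox replicates 2 and 3 lay above every A-485 and Dox library, as they did for BBC3. Its counts were low, at 38, 42 and 42 reads in A-485 and 67, 72 and 93 in DMSO. SESN3, the sestrin best known as a FOXO target, rose in A-485 against DMSO by 2.19 ± 0.29 (edgeR adjusted p = 0.00014), with 5.86, 6.77 and 5.98 CPM in A-485 and 1.24, 1.39 and 1.44 in DMSO. TP53INP2, the paralog of TP53INP1, rose by 0.54 ± 0.17 in A-485 against DMSO (edgeR adjusted p = 0.021), a call that was lost without any 1 A-485 or DMSO library. TNFRSF10B, the TRAIL death receptor DR5, had 289, 288 and 283 CPM in A-485 and Dox, 205, 205 and 205 in A-485, 183, 296 and 298 in Dox and 206, 209 and 209 in DMSO. Its doxycycline comparisons, at 0.48 ± 0.15 under A-485 and 0.32 ± 0.15 without it, missed the edgeR threshold with all 12 libraries and passed it without Dox replicate 1, at 0.48 and 0.51 (edgeR adjusted p = 9.1e-31 and 2.1e-29).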
